A study of Mus musculus with 18 samples.

Results

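Cathepsins are the proteases of the lysosome, and cystatin C is a secreted inhibitor of the cysteine cathepsins. The mRNAs of 9 cathepsins (Ctsa, Ctsb, Ctsc, Ctsd, Ctsf, Ctsh, Ctsl, Ctss and Ctsz) and of cystatin C (Cst3) were followed in the frontal cortex of mice with an amyloid transgene, with and without farnesyltransferase in forebrain neurons. These 10 genes were chosen by name from the 55487 genes of the count table, and all 10 were among the 17414 genes with enough reads to be tested. The choice was made with earlier results of these data known. Ctsc is also in a heatmap of the study, which chose it on these mice. Frontal cortical mRNA was sequenced from 18 mice at 9 to 10 months of age, and each of 3 genotypes had 3 females and 3 males. The APP/PS1 mice carried the amyloid transgenes of the 85Dbo line, among them a chimeric mouse/human APP with the Swedish mutations. The APP/PS1/FTnKO mice carried the same transgenes and in addition lacked the β-subunit of farnesyltransferase, the enzyme that attaches farnesyl groups to proteins, in neurons where Cre is driven by the CaMKIIα promoter. By the study's methods, the WT and APP/PS1 mice were Cre-negative littermates that carried the same floxed Fntb alleles as the APP/PS1/FTnKO mice, but the series description names C57BL/6J for the WT mice, and this difference was not settled here.

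In the brain, microglia express most lysosomal cathepsins at higher levels than neurons do, and cystatin C mRNA is abundant in microglia and astrocytes. Cathepsin D is an aspartic protease that degrades a broad range of proteins in the lysosome. Cathepsins B, C, F, H, L, S and Z are papain-like cysteine proteases, of which cathepsin C activates serine proteases by removing dipeptides, cathepsin H is an aminopeptidase, cathepsin L and cathepsin S cut the invariant chain of MHC class II, and cathepsin Z is a carboxypeptidase. Cathepsin A is a serine carboxypeptidase that also protects β-galactosidase and neuraminidase 1 in the lysosome.

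WT mouse 19622 stood apart and was left out of the genotype comparisons, so that 17 mice were compared. The mean of its distances to the other WT mice, each over the 500 genes that differed most in each pair, was 4.31 on the log2 scale against 1.92 to 2.51 for the 17 mice within their genotypes. The values of the other WT mice (2.40 to 2.51) include their distance to mouse 19622. Those of the 12 transgenic mice were 1.92 to 2.34. The summed level of 8 cerebellar markers was 2719 CPM (counts scaled to library size) in this mouse and 31.7 to 65.1 in the 17 mice, and the summed level of 9 frontal cortical markers was 175 against 502 to 768, with 3 of the 9 at 0. Library sizes of the 18 mice ran from 15925432 to 21030935 counts. Fntb, the gene with the floxed alleles, ran from 14.1 to 32.2 CPM among WT mice, from 14.2 to 32.1 among APP/PS1 mice and from 7.84 to 14.7 among APP/PS1/FTnKO mice, and its difference between the transgenic genotypes (log2 fold change −0.77, SE 0.26) did not pass the test (edgeR FDR = 0.251). App rose by 0.89 (FDR = 6.7e-05) and Prnp, whose promoter drives the transgenes, by 1.58 (FDR = 2.7e-09) on the log2 scale in APP/PS1 against WT mice, and every one of the 12 transgenic mice was above all WT mice for both genes.

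The proximal promoters of the members were read from RefSeq (GRCm38.p6), which gave 9 windows for 8 members and none for Ctsb and Ctsh. Palindromic CACGTG, the E-box that MiT/TFE factors of lysosomal genes can bind, was found in windows of 4 members (Ctsa, Ctsd, Ctsf and Ctsl), while 7.15% of 32817 mouse promoter windows of 300 bases held it. The longer form TCACGTGA, which contains that E-box, was in windows of 2 members (Ctsa and Ctsd) and in 0.9751% of all windows. GAGGAAGT, a core that the myeloid factor PU.1 can bind, was searched on both strands and was in the windows of 2 members (Ctsc and Ctss) and in 3.20% of all windows. The windows with the longer E-box or the PU.1 core are shown from 250 bases before the start site to 20 bases after it, 5′ to 3′ on the strand of the gene, so that the matches can be read in place. The windows of Ctsz and Cst3 held none of the 3 motifs, and those of Ctsl and Ctsf held only the short E-box. Whether the matches go with the changes in level was not tested. Capitals mark the matches, with GAGGAAGT written as its reverse complement. A match is only a description of the letters, and no binding was measured.

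Ctsd, chr7:142387808-142388077, minus strand: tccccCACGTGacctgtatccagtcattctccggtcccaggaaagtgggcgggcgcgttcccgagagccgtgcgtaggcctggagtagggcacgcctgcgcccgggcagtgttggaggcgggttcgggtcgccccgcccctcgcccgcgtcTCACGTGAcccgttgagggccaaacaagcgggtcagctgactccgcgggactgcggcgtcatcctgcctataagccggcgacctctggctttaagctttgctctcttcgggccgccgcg
Ctsa, second start site, chr2:164833523-164833792, plus strand: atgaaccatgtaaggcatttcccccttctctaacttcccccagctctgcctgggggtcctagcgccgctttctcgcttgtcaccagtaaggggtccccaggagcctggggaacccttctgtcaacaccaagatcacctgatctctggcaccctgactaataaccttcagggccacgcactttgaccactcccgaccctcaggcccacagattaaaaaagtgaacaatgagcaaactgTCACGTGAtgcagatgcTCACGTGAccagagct
Ctss, chr3:95526536-95526805, plus strand: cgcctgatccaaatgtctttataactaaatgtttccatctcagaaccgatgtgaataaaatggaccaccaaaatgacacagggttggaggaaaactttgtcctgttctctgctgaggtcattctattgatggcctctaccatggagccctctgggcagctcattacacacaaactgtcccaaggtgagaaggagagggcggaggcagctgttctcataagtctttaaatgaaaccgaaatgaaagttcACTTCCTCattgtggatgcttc
Ctsc, chr7:88277835-88278104, plus strand: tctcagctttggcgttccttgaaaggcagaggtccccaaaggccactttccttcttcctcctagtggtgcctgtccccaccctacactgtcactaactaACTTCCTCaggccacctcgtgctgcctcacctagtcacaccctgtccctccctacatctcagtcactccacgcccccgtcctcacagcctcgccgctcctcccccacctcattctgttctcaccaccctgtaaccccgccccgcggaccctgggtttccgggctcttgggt

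To compare levels between genes, CPM were divided by the length of the merged exons in kb. These lengths join the exons of all annotated transcripts, at 6051 bases for Ctsb, 2351 for Ctsd and 1358 for Ctss. The order and the shares given here depend on them. In WT mice Cst3 was by far the most abundant member per kb, at 636 ± 32.8 CPM per kb (SD, n = 5). Ctsb followed at 93.8 ± 4.17, Ctsd at 71.1 ± 3.85, Ctss at 47.4 ± 5.66, Ctsz at 23.6 ± 0.95 and Ctsa at 20.6 ± 0.89 CPM per kb. Ctsl at 11.6 ± 0.23 and Ctsf at 10.7 ± 0.82 CPM per kb were the only neighbours in this order whose ranges overlapped in WT mice. Ctsh (2.24 ± 0.28) and Ctsc (1.17 ± 0.089) were the scarcest, and Ctsc rested on 107 to 139 reads per WT mouse.

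In APP/PS1 mice the order of the leading cathepsins per kb changed. In CPM not divided by length, Ctsb (mean 719) stayed above Ctsd (453) and Ctss (172) in these mice. Ctsd was at 193 ± 45.2 CPM per kb (n = 6) and Ctss at 127 ± 33.4, above Ctsb at 119 ± 11.8. The ranges of Ctsd and Ctss overlapped, as did those of Ctss and Ctsb, and Ctss was above Ctsb in 4 of 6 mice. In APP/PS1/FTnKO mice Ctsd (148 ± 34.97) was above Ctsb (115 ± 10.9) in 5 of 6 mice, and Ctsb was above Ctss (98.6 ± 25.2) in 6 of 6. Per kb, Ctsd made up 25.2% ± 0.99 of the summed level of the 9 cathepsins in WT, 33.8% ± 2.22 in APP/PS1 and 31.2% ± 2.95 in APP/PS1/FTnKO mice. The share of Ctsb was 33.3% ± 1.90, 21.5% ± 2.76 and 24.96% ± 3.63 in the same order. The share of Ctsd was higher in each of the 12 transgenic mice than in any WT mouse, where the highest was 26.2%. The summed level of the 9 cathepsins was 282 ± 7.83 CPM per kb in WT, 565 ± 113 in APP/PS1 and 469 ± 84.3 in APP/PS1/FTnKO mice.

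**Figure D1:**
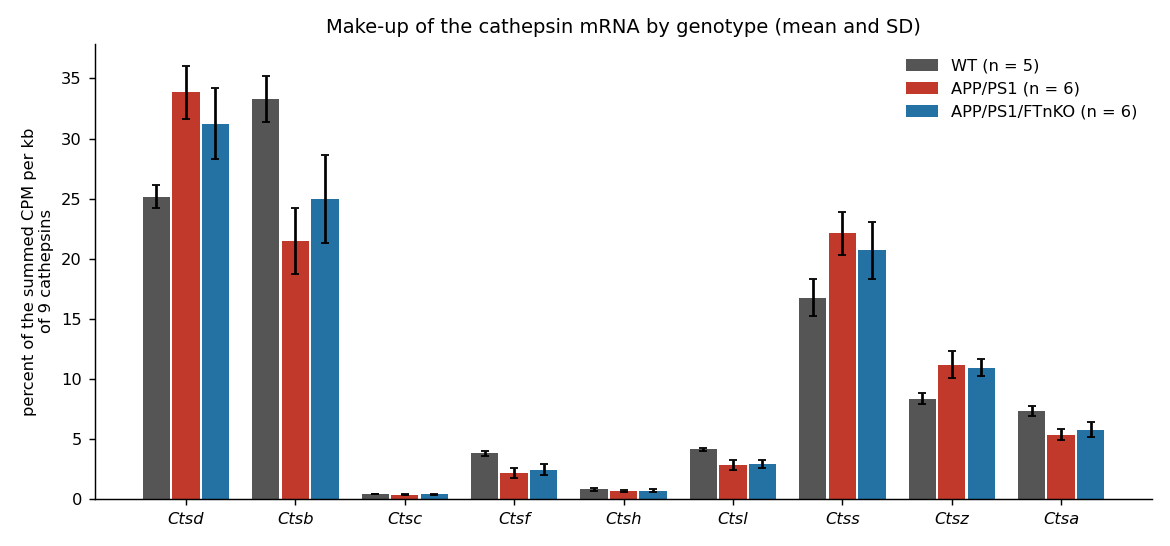
Bars give each cathepsin's share of the summed CPM per kb of 9 cathepsins (y axis, percent, starting at 0) as mean and SD over 5 WT, 6 APP/PS1 and 6 APP/PS1/FTnKO mice. Ctsb held the largest mean share in WT mice (33.3%) and Ctsd in APP/PS1 (33.8%) and APP/PS1/FTnKO mice (31.2%).

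The amyloid transgene was addressed by comparing APP/PS1 with WT mice. Of the 10 members, 7 rose (Ctsa, Ctsb, Ctsc, Ctsd, Ctsl, Ctss and Ctsz) and none fell at an FDR of 0.05 (edgeR quasi-likelihood test with sex as a covariate, Benjamini-Hochberg over all genes tested). In the same comparison, 1.32% of the 17414 genes rose. The median log2 fold change of the members was 0.68, beside −0.0023 over all genes tested. Ctsz, Ctsd and Ctss stood highest, at 2.64-fold, 2.61-fold and 2.597-fold. Ctsc (1.70-fold), Ctsa (1.44-fold), Ctsl (1.34-fold) and Ctsb (1.25-fold) rose by less. The 95% interval of Ctsd, 2.07-fold to 3.28-fold, lay above those of Ctsa, Ctsl and Ctsb, the highest of which ended at 1.65-fold. Differences between members were not tested.

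Ctsd (ENSMUSG00000007891, chr7:142375911-142388038 in GRCm38) was at 156, 164, 166, 169 and 181 CPM in the WT mice. The APP/PS1 mice ran from 268 to 547 CPM (median 481), while the APP/PS1/FTnKO mice ran from 199.6 to 431 CPM (median 356). All 12 transgenic mice were above all 5 WT mice, and the transgenic genotypes overlapped each other widely. The log2 fold change of APP/PS1 over WT mice was 1.38 (SE 0.16, FDR = 1.4e-04).

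Ctss (ENSMUSG00000038642, chr3:95526786-95556403) was at 57.6, 58.7, 60.3, 71.0 and 74.3 CPM in WT mice, and ran from 99.5 to 219.7 CPM with a median of 188 in APP/PS1 mice. No APP/PS1 mouse reached down to the WT mice. In APP/PS1/FTnKO mice it ran from 70.0 to 162 CPM with a median of 147, and the lowest of these, mouse 18973, lay within the WT range. The log2 fold change of APP/PS1 over WT mice was 1.38 (SE 0.20, FDR = 8.0e-04).

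Ctsz (ENSMUSG00000016256, chr2:174427493-174439039) was nearly constant in WT mice, at 32.4, 32.9, 33.8, 34.9 and 35.7 CPM. In APP/PS1 mice it ran from 50.9 to 121 CPM (median 101), and in APP/PS1/FTnKO mice from 45.5 to 88.9 CPM (median 80.9). All 12 transgenic mice were above all WT mice, and the log2 fold change of APP/PS1 over WT mice was 1.40 (SE 0.17, FDR = 2.5e-04).

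Among the cathepsins that rose by less, Ctsc (ENSMUSG00000030560, chr7:88278085-88310888) was at 6.00, 6.52, 6.95, 7.18 and 7.22 CPM in WT mice and at 7.94 to 13.9 with a median of 12.2 in APP/PS1 mice (log2 fold change 0.76, SE 0.14, FDR = 0.00706). Ctsa (ENSMUSG00000017760, chr2:164832873-164841032) was at 91.5 to 101 CPM in WT and at 108 to 172 with a median of 145 in APP/PS1 mice (log2 fold change 0.52, SE 0.094, FDR = 0.00551). Ctsl (ENSMUSG00000021477, chr13:64359337-64370890) was at 73.8 to 77.4 CPM in WT and at 87.6 to 115 with a median of 102 in APP/PS1 mice (log2 fold change 0.42, SE 0.077, FDR = 0.00698). For these 3 genes the APP/PS1 and WT mice did not overlap.

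Ctsb (ENSMUSG00000021939, chr14:63122462-63145923) was at 539, 558, 562, 572 and 608 CPM in WT mice and ran from 593 to 786 with a median of 749.8 in APP/PS1 mice. Of the 6 APP/PS1 mice, 5 were above all WT mice, and mouse 19744 was not. The log2 fold change was 0.32 (SE 0.065, FDR = 0.0139), and without WT mouse 18944 it was 0.28 and no longer passed. The other 6 calls held whichever of the 17 mice was left out. The exons of Ctsb overlap those of Fdft1 on the other strand, Ctsa shares exonic bases with Pltp and Neurl2 on the other strand, and Ctsz with Nelfcd on the other strand. The sources used here do not give the strand setting of the counting, so reads in these stretches cannot be assigned with certainty. Ctsd and Ctsl also share exonic bases with Gm49369 and Gm49230 on the same strand, where reads are ambiguous under any strand setting, and both of these genes had 0 counts in every mouse.

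The other 3 members did not pass the test. Ctsh (ENSMUSG00000032359, chr9:90054152-90076089) was at 8.33 to 11.7 CPM in WT and at 10.2 to 22.1 with a median of 18.6 in APP/PS1 mice, and its difference of 0.79 on the log2 scale (SE 0.22) had an edgeR FDR of 0.0996. Ctsf (ENSMUSG00000083282, chr19:4855130-4860918) overlapped most, at 50.7 to 59.4 CPM in WT and 53.0 to 67.0 in APP/PS1 mice, and its 95% interval ran from 0.99-fold to 1.23-fold. Cst3 (ENSMUSG00000027447, chr2:148871722-148875692) was at 731, 821, 824, 826 and 826 CPM in WT mice and ran from 852 to 1775 with a median of 1171 in APP/PS1 mice. Every APP/PS1 mouse was above all WT mice for Cst3, yet the log2 fold change of 0.59 (SE 0.15) missed the threshold (edgeR FDR = 0.0649). The SD of Cst3 among APP/PS1 mice was 323 CPM, and Cst3 was not called without mouse 16975, the highest of them, either. DESeq2 called Ctsh and Cst3 as well, 9 of 10 members in all, while it called 2.2% of all genes higher. Counting Cst3, 7 members did not overlap between APP/PS1 and WT mice (Ctsa, Ctsc, Ctsd, Ctsl, Ctss, Ctsz and Cst3), where 1.71% of all genes were higher without overlap.

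**Figure D2:**
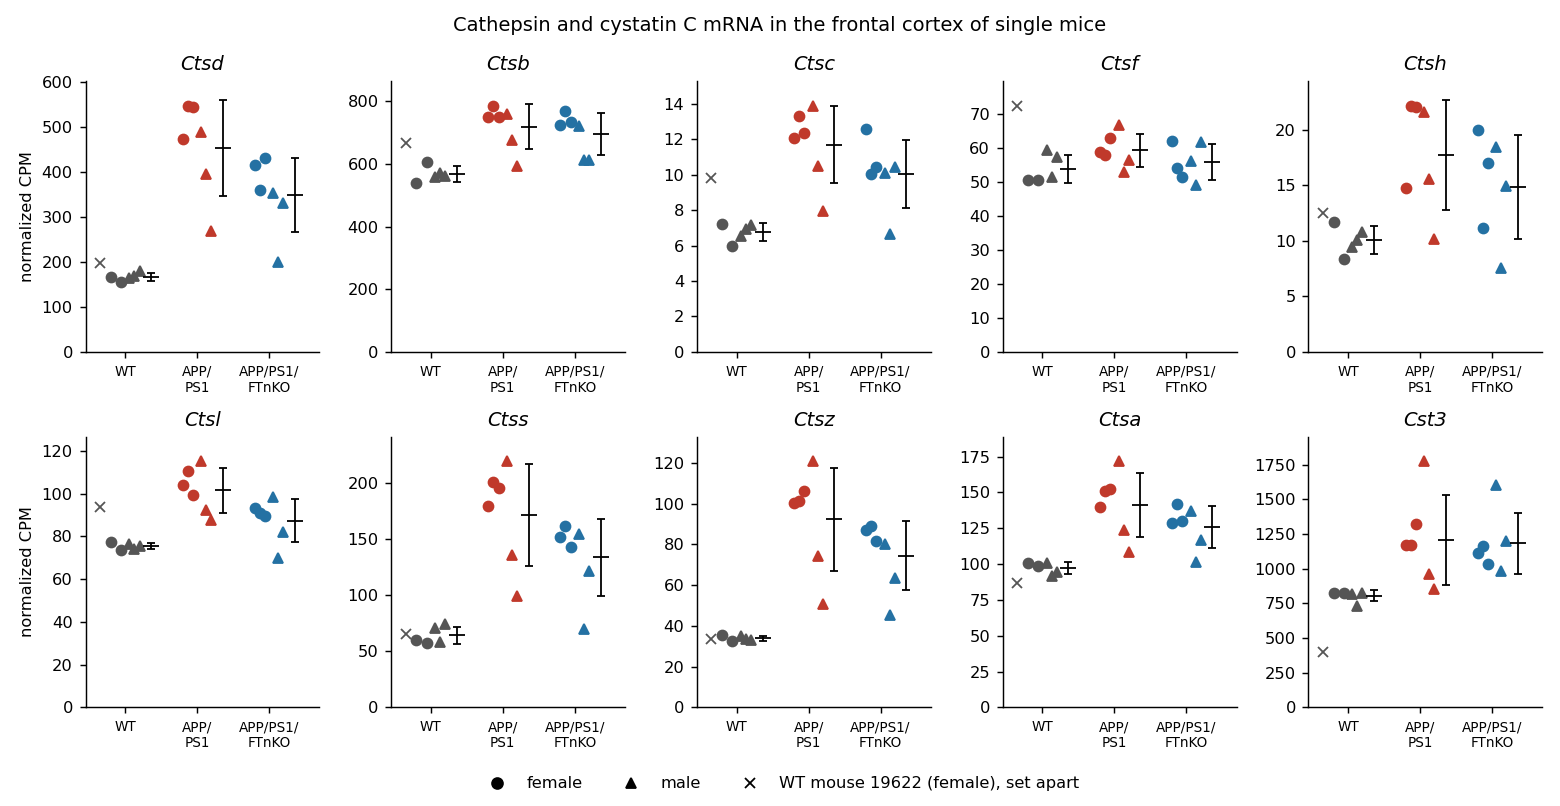
Each panel plots the normalized CPM of 1 gene (y axis, starting at 0) for every mouse by genotype, with females as circles, males as triangles, WT mouse 19622 as a cross, and a bar for the mean and SD of the mice without 19622. For Ctsd the 6 APP/PS1 mice lay between 268 and 547 CPM, above the WT mice at 156 to 181, and the lowest point of both transgenic genotypes was a male.

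Whether loss of neuronal farnesyltransferase changed these mRNAs was addressed by comparing APP/PS1/FTnKO with APP/PS1 mice. None of the 10 members passed the test in edgeR or in DESeq2, which called 0.327% and 1.45% of all genes in either direction. All 10 log2 fold changes were negative, beside 50.5% of all genes, and the median was −0.22. The members varied together from mouse to mouse, so the 10 signs are not independent. Cst3 was positive with RIN as a covariate (0.11), with only mice of RIN at least 8, in males alone (0.075) and without APP/PS1 mouse 16975 (0.12). With single mice left out, its log2 fold change ran from −0.14 to 0.12. Ctsb and Cst3 were positive with the general microglial level as a covariate, and 7 of the 10 were with the homeostatic level. The median was −0.13 without APP/PS1/FTnKO mouse 18973, −0.14 without APP/PS1 mouse 16975, −0.14 with RIN, −0.047 with the general and 0.0066 with the homeostatic microglial level. Microglial genes had the same sign here, with 10 of 10 general, 10 of 10 homeostatic and 14 of 15 plaque-associated genes negative, at medians of −0.28, −0.23 and −0.29. At an unadjusted p below 0.05, edgeR gave 2 members (Ctsl and Ctsd), where it gave 11.5% of all genes, and DESeq2 gave 3 (Ctsl, Ctsd and Ctsz), where it gave 11.3%. The edgeR count was 6 without APP/PS1 mouse 19744 (11.2% of all genes) and 5 without APP/PS1/FTnKO mouse 16974 (10.4% of all genes). It was 5 in females alone (9.75% of all genes), 5 with no filter on low counts (7.45%), 1 with only mice of RIN at least 8 (9.39%), 0 in males alone (4.88%) and 0 with the homeostatic microglial level as a covariate (17.1%). Ctsl had a log2 fold change of −0.22 (95% interval −0.37 to −0.064, edgeR FDR = 0.247) and Ctsd of −0.38 (95% interval −0.69 to −0.077, edgeR FDR = 0.312). For Ctss the interval ran from 0.60-fold to 1.01-fold, for Ctsz from 0.64-fold to 1.01-fold, and for Cst3 from 0.79-fold to 1.20-fold. The 2 genotypes overlapped for every member, while 0.373% of all genes were lower without overlap.

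Against WT mice, the APP/PS1/FTnKO mice had 7 members higher at an FDR of 0.05 (Ctsa, Ctsb, Ctsc, Ctsd, Ctss, Ctsz and Cst3), where 2.22% of all genes were higher. Ctsz was at 2.13-fold (FDR = 0.00279), Ctss at 2.02-fold (FDR = 0.00958) and Ctsd at 2.002-fold (FDR = 0.00279). Cst3 was at 1.47-fold and close to the threshold (FDR = 0.0497). Ctsl, which rose in APP/PS1 mice, was at 1.15-fold here and did not pass (FDR = 0.140). Ctsh (1.45-fold) and Ctsf (1.04-fold) did not pass either. Ctsa, Ctsb, Ctsd, Ctsz and Cst3 did not overlap between these genotypes, where 2.75% of all genes were higher without overlap. When each of the 17 mice was left out in turn, Ctsd, Ctss and Ctsz were called 17 times, Ctsb 11 times, Ctsa 7 times, and Ctsc and Cst3 5 times each. Both comparisons with WT mice share the same 5 WT mice, and with mouse 19622 included the calls of APP/PS1/FTnKO against WT mice were 4 members (Ctsa, Ctsd, Ctss and Ctsz) in place of 7, where 1.22% of all genes were higher.

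**Figure D3:**
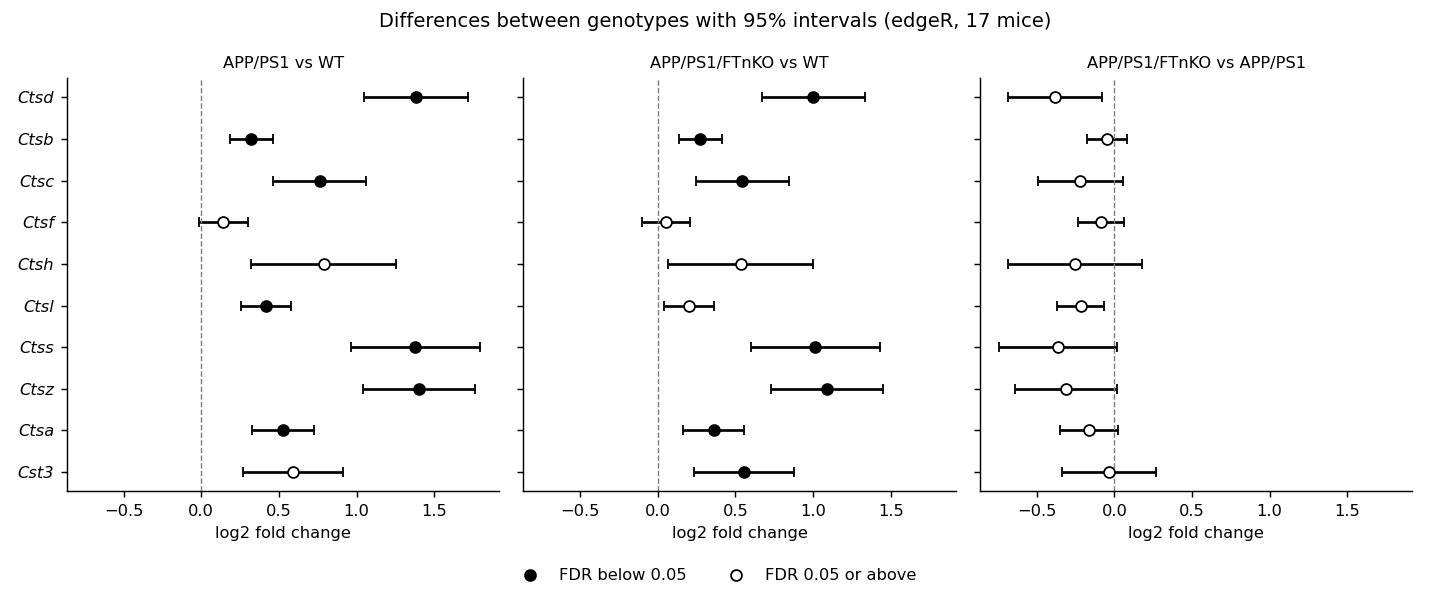
Points give the log2 fold change (x axis) of each gene in 3 comparisons over 17 mice, bars give the 95% interval, and filled points have an edgeR FDR below 0.05. The 2 comparisons with WT mice have 7 filled points each, and the comparison between the transgenic genotypes has 10 open points, all left of 0.

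The members varied together from mouse to mouse within a genotype. APP/PS1 mouse 19744, a male, was the lowest of its genotype in 9 of 10 members, and APP/PS1/FTnKO mouse 18973, also a male, was the lowest in 9. APP/PS1 mouse 16975, a male with an RNA integrity number (RIN) of 7.7, was the highest in 7. After the mean of each genotype and sex was subtracted, Pearson's r of log2 CPM over the 17 mice was 0.21 to 0.97 among the 45 pairs of members, with a median of 0.79. The closest pair was Ctsa with Cst3, and the least alike was Ctsb with Ctsf. With mouse 19622 added, the median was 0.71, and r of Cst3 was 0.27 with Ctsl and −0.10 with Ctsf. Leaving out the 2 of the 17 mice farthest from the median lowered the median r from 0.79 to 0.62. For Ctsb it took r with Ctsf from 0.21 to −0.10, with Ctsh from 0.47 to 0.16 and with Ctsc from 0.53 to 0.26. It also took Ctsb from 0.75 to 0.46 with Ctsl and from 0.64 to 0.42 with Ctsd. For Ctsa with Ctsc r went from 0.75 to 0.49, and for Ctsf with Cst3 from 0.66 to 0.43. Ctsf was the least like the others, with a median r of 0.57, and without those mice its r fell from 0.55 to 0.22 with Ctsl, from 0.58 to 0.27 with Ctsz, from 0.57 to 0.34 with Ctsh and from 0.66 to 0.40 with Ctss.

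**Figure D4:**
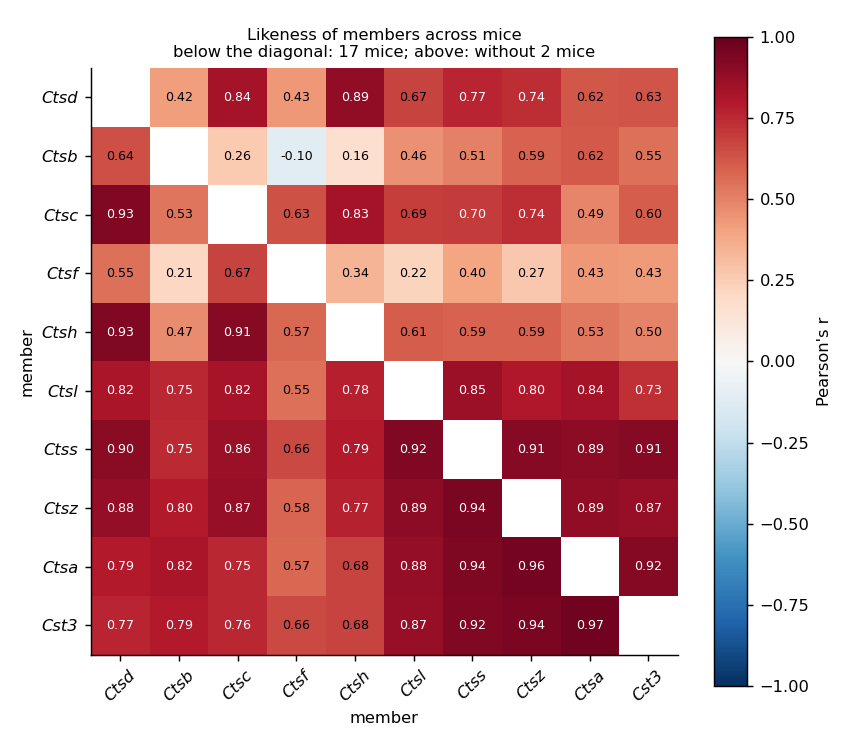
Colours and numbers give Pearson's r between members across mice after the mean of each genotype and sex was subtracted. Values below the diagonal are over 17 mice, and those above it are without 2 mice. These were the 2 mice farthest from the median of the pair's gene that is first in the alphabet, with Cst3 taken last. The rows of Ctsf and Ctsb are the palest, and r of Ctsb with Ctsf was 0.21 over 17 mice.

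Over the same 17 mice, the genes most like Ctss included Itgb2 (r = 0.97) and AU020206 (0.97). Ctsd was most like Trem2 (0.97), Laptm5 (0.97) and Lyz2 (0.95), and Ctsz most like Cd68 (0.98), Vim (0.97) and the progranulin gene Grn (0.97). Cst3 was most like Cd14 (0.98), Rpl23a (0.98) and the complement gene C1qa (0.97). Ctsa was most like Fcgr2b, Cd68 and Cst3 (0.97 each), and Ctsl most like Tsc22d4 (0.95), Plek (0.93) and Slc9a3 (0.93). Ctsc was most like the growth factor gene Ptn (0.97), Tcirg1 (0.96) and Trem2 (0.95), and Ctsb was most like Cox6b2 (0.92), Anxa3 (0.91) and Carns1 (0.90). These values describe 17 libraries that share the same mice and depths. With mouse 19622 added, r of Ctsc with Ptn was −0.027 and r of Cst3 with Cd14 was 0.67.

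Microglial markers moved with the members. In bulk tissue, more cells of a type and more RNA per cell cannot be told apart. The summed level of 10 general microglial genes was 340 to 387 CPM among WT mice, 477 to 1029 among APP/PS1 mice (477 in mouse 19744, 1029 in mouse 16975) and 396 to 714 among APP/PS1/FTnKO mice (396 in mouse 18973), with none of the 10 at 0 throughout a genotype. Of these genes 7 rose in APP/PS1 against WT mice, among them C1qa by 1.43 on the log2 scale, and 14 of 15 plaque-associated microglial genes rose, among them Itgax by 5.47 and Trem2 by 2.37. Of 10 homeostatic microglial genes 4 rose, led by Fcrls (1.497). None of 7 perivascular macrophage markers passed, and their summed level was 7.08 to 9.64 CPM in WT and 6.64 to 11.4 in APP/PS1 mice. In astrocytes Gfap rose by 2.78 on the log2 scale, 1 of 8 markers. Of 6 excitatory neuron markers, 1 fell in APP/PS1/FTnKO against WT mice, which was Slc17a7, a vesicular glutamate transporter (log2 fold change −0.46, edgeR FDR = 0.0396), and Camk2a was at −0.39 (FDR = 0.0983). The summed level of these 6 markers was 5667 ± 743 CPM for WT, 5580 ± 846 for APP/PS1 and 4402 ± 610.4 for APP/PS1/FTnKO mice, with overlap, and its part in the members' levels was not tested. None of these lists had a called gene when the transgenic genotypes were compared with each other.

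Each member was also divided by the summed level of the general microglial genes. Ctss and Ctsz of APP/PS1 mice were still above those of WT mice, by 0.42 (SE 0.079) and 0.43 (SE 0.066) on the log2 scale, with no overlap between the mice, where 0.287% of all genes were higher without overlap. Ctsd was higher by 0.44 (SE 0.10) with overlap. Ctsc (−0.19) and Ctsh (−0.19) overlapped. Ctsa (−0.43), Ctsl (−0.54), Ctsb (−0.62), Ctsf (−0.82) and Cst3 (−0.41) were lower relative to these genes, with no overlap, but since the divisor itself was higher in APP/PS1 mice, 68.5% of all genes were lower without overlap, and the 5 lower ratios are not particular to the members. Divided by the homeostatic genes instead, Ctsd (0.86), Ctss (0.83) and Ctsz (0.85) were higher with no overlap, where 0.5% of all genes were, and Cst3 overlapped, with a difference of 0.0048 (SE 0.092). When the level of the general microglial genes was a covariate in the fit, no member passed in any comparison. With it, 0.0345% of all genes were higher in APP/PS1 and 0.0402% in APP/PS1/FTnKO against WT mice, and 2.5% differed between the transgenic genotypes. With the homeostatic level as the covariate, an alternative chosen after seeing the data, no member rose in APP/PS1 mice, where 0.0517% of all genes did, and 2 (Ctsd and Ctsz) did in APP/PS1/FTnKO against WT mice, where 0.448% of all genes did. The part of microglial number in the members' levels was not tested.

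**Figure D5:**
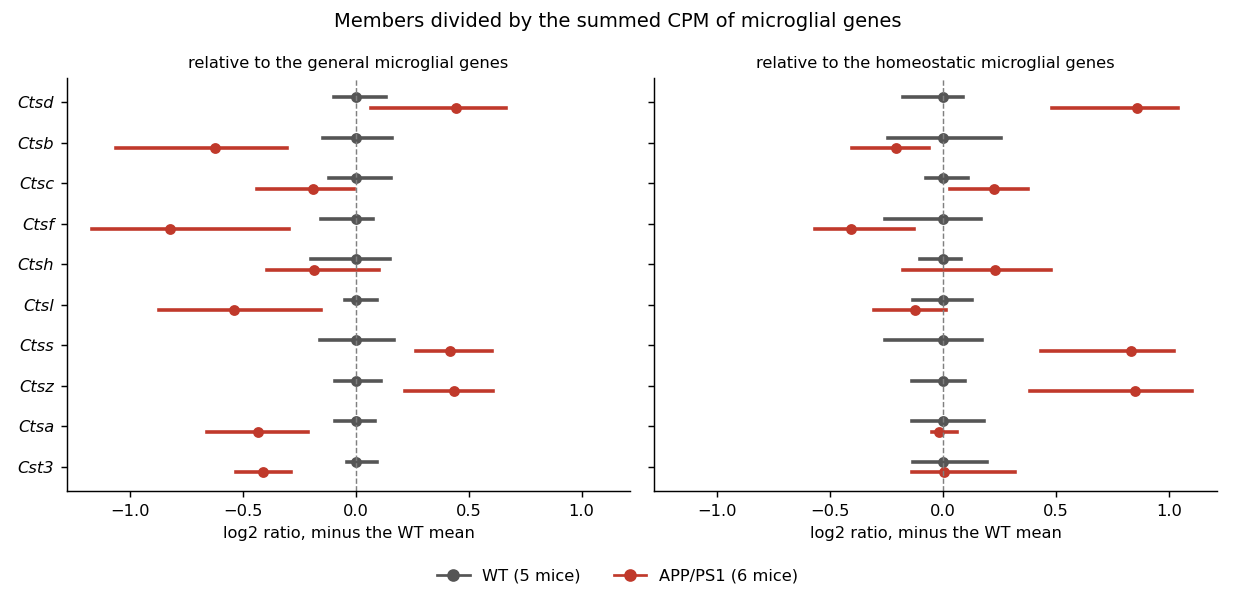
Points and bars give the mean and the range of the log2 ratio of each gene to the summed CPM of general or homeostatic microglial genes (x axis), with the WT mean set to 0. Ctss and Ctsz of APP/PS1 mice lay right of the WT range in both panels, and 5 genes lay left of it in the panel of the general genes, as 68.5% of all genes did.

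RNA integrity also differed between the groups. RIN ran from 8.5 to 8.8 for WT, from 7.7 to 8.7 for APP/PS1 and from 7.6 to 8.7 for APP/PS1/FTnKO mice. With RIN as a covariate, 3 members (Ctsd, Ctss and Ctsz) still rose in APP/PS1 against WT mice, where 0.459% of all genes rose, and the members' median log2 fold change was 0.42 in place of 0.68. With only mice of RIN at least 8 there were 5 (Ctsa, Ctsd, Ctsl, Ctss and Ctsz), where 0.666% of all genes rose. In APP/PS1/FTnKO against WT mice the RIN covariate left 4 members (Ctsb, Ctsd, Ctss and Ctsz), where 1.27% of all genes were higher. The part of RNA integrity in the members' levels was not tested.

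Sex was tested in the same way. None of the members differed between females and males at an FDR of 0.05 (edgeR), where 0.0689% of all genes did, and 3 did at an unadjusted p below 0.05, where 6.7% of all genes did. These were Ctsd, higher in females by 0.30 (SE 0.12), Ctsz by 0.28 (SE 0.13) and Ctsb by 0.14 (SE 0.052) on the log2 scale. DESeq2 called 0 members, where it called 0.178% of all genes, and gave 3 at an unadjusted p below 0.05, where it gave 6.83%. Mouse 19622 is a female, so the fits by sex and of the interaction had 2 WT females. In females alone, 8 members rose in APP/PS1 against WT mice, where 1.58% of all genes did. In males alone (3 mice per genotype) no member passed, where 0.0231% of all genes were higher in APP/PS1 and 0.0174% in APP/PS1/FTnKO against WT mice. The members' median log2 fold change of APP/PS1 over WT was 0.62 in males and 0.75 in females, and 8 members in males and 10 in females were at an unadjusted p below 0.05, where 4.54% and 14.9% of all genes were. For APP/PS1/FTnKO over WT the members' median was 0.42 in males, beside 0.54 in all mice. For APP/PS1 over WT in males, Ctsd was at 1.17 (SE 0.23) and Ctsz at 1.28 (SE 0.28). The interaction of sex with genotype was called for 0 members in each of the 3 comparisons by edgeR and by DESeq2, with 0 members at an unadjusted p below 0.05 in either. Of all genes, edgeR called 0 and gave 4.05%, 3.32% and 1.79% at an unadjusted p below 0.05 in APP/PS1 against WT, APP/PS1/FTnKO against APP/PS1 and APP/PS1/FTnKO against WT mice, and DESeq2 called 0.0115%, 0.00574% and 0% in that order. A difference in response between the sexes was therefore not shown. For Ctsd in APP/PS1 against WT mice the interaction was 0.53 (SE 0.29, edgeR FDR = 0.9998).

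Of 3 other cathepsins with enough reads, Ctse rose (FDR = 0.00368), being at 0 to 0.305 CPM in WT mice and at 0.588 to 4.59 CPM in APP/PS1 mice, and Ctso and Ctsk did not. Of 20 other cystatins and stefins 3 were tested, and Cst7, which encodes the lysosomal cystatin F, rose (FDR = 1.2e-06), being at 0 to 0.177 CPM in WT mice and at 11.7 to 53.4 CPM in APP/PS1 mice. Of 19 genes for sorting, processing and regulation of lysosomal enzymes, 4 rose, which were Grn (log2 fold change 0.82), Prdx6 (0.51), Lamp2 (0.33) and Lgmn (0.29), the last encoding a protease that processes cathepsins. The list's median was 0.048. The ratio of the 7 cysteine cathepsins, summed per kb, to Cst3 was 0.300 ± 0.015 for WT, 0.365 ± 0.043 for APP/PS1 and 0.320 ± 0.060 for APP/PS1/FTnKO mice, with overlap.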

How the data were processed

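The deposited values were whole-number counts of reads per gene, which the authors made from frontal cortical mRNA-seq (Trimmomatic 0.33, FastQC 0.11.7, HISAT2 2.1.0, GRCm38 and featureCounts, for which the sources used here give no version or settings). The table held 1 column per mouse for 18 mice. From these counts, genes were kept by filterByExpr (minimum count 10), scaled by TMM and tested with edgeR 4.0.16 (quasi-likelihood, R 4.3.3) in 1 fit of 3 genotypes with sex as an additive term, over 17 mice, because mouse 19622 stood apart (the study's methods exclude 1 WT mouse as an outlier). SE and 95% intervals were recovered from the F statistic and its degrees of freedom. CPM are TMM-scaled. For mouse 19622 they use the scaling of all 18 mice. Likeness used log2 CPM with a prior count of 2. Lengths and coordinates came from GENCODE M21 (GRCm38), where 99.5% of gene IDs had an entry. DESeq2 1.42.0 and limma 3.58.1 were alternatives. Scripts were tested on simulated counts. Each column is a separate mouse. The members and lists were chosen with earlier results of these data known. Named genes were all members, the 3 genes most like each called member and Cst3, and at most 4 genes per list by smallest p. Of these, 1 gene is not reported here.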

Additional observations from a re-analysis of the deposited data

Results flagged for a closer look

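Of 40 sets of WT or transgenic mice examined (10 members in WT mice, in WT mice with mouse 19622, in APP/PS1 and in APP/PS1/FTnKO mice), 5 had a mouse far from the others by Dixon's ratio, where chance gives about 1 in 20 independent sets. These sets are not independent, since the WT mice enter in both WT sets and the members vary together, so the count is not read against that rate. In 3 of them it was mouse 19622, which had already been set apart, with ratios of 0.777 for Cst3 (401 CPM against 731 to 826 in the other WT mice), 0.820 for Ctsl (93.9 CPM against 73.8 to 77.4) and 0.681 for Ctsc (9.82 CPM against 6.00 to 7.22). This mouse had 49.8% of the mean WT level of Cst3 and 145% of that of Ctsc, and its ratio of cysteine cathepsins to Cst3 was 0.678. For Cst3 among the 5 other WT mice the ratio was 0.945, with mouse 19718 at 731 CPM, and in APP/PS1/FTnKO mice it was 0.657, with mouse 16974 at 1604 CPM.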

How the results depend on the processing

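No paired analysis was possible because the labels give no replicate numbers, and the numbers used here follow the order of deposit and tie no mice of different genotypes to each other. For APP/PS1 against WT mice the members called were 7, and 3 with RIN as a covariate, 0 with the general or the homeostatic microglial level as a covariate and 0 in males alone. The members' median log2 fold change was 0.62 in males, beside 0.68 in all mice, and 0.42 with RIN, 0.069 with the general and 0.19 with the homeostatic microglial level. Without 1 mouse the calls were 6 to 9, while 0.695% to 2.23% of all genes rose. For APP/PS1/FTnKO against WT mice the calls were 7, and 4 with all 18 mice, 4 with RIN, 0 with the general and 2 with the homeostatic microglial level, 0 in males alone (median log2 fold change 0.42, beside 0.54) and 3 to 8 without 1 mouse, while 0.786% to 3.44% of all genes were higher. They were 3 without APP/PS1/FTnKO mouse 16974, 18943 or 19394 or WT mouse 18944, 19053 or 19721, where 0.786% to 1.25% of all genes were higher beside 2.22% in all mice, and 4 without APP/PS1/FTnKO mouse 19720, APP/PS1 mouse 19553 or 19554 or WT mouse 19718 (0.934% to 1.85%), so calls were lost over all genes and not only among the members. No alternative called a member between the transgenic genotypes. The other alternatives (DESeq2, limma-voom, other scalings, filters and fits) stayed within 1.5 times the counts of calls.

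Some log2 fold changes changed sign, none of them past the FDR of 0.05 after the change, and the cause was not tested. With the general microglial level, APP/PS1 against WT gave −0.16 for Ctsf, −0.26 for Ctsh and −0.22 for Cst3, and APP/PS1/FTnKO against WT gave −0.026 for Ctsa, −0.17 for Ctsf, −0.27 for Ctsh, −0.082 for Ctsl and −0.037 for Cst3. Between the transgenic genotypes it gave 0.0090 for Ctsb and 0.18 for Cst3. With the homeostatic level, APP/PS1 against WT gave −0.096 for Ctsf and −0.14 for Ctsh, APP/PS1/FTnKO against WT gave −0.076 for Ctsf, and the transgenic genotypes gave 0.0063 for Ctsb, 0.038 for Ctsc, 0.020 for Ctsf, 0.16 for Ctsh, 0.0069 for Ctss, 0.0044 for Ctsz and 0.22 for Cst3. Cst3 between the transgenic genotypes was also 0.11 with RIN, 0.023 with RIN of at least 8, 0.075 in males and −0.14 to 0.12 without 1 mouse. Ctsf of APP/PS1/FTnKO against WT was −0.027 with all 18 mice, −0.030 with DESeq2 on them and −0.0079 in males. The lowest counts limit Ctsc, with 107 to 275 reads per mouse.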
